A study of Mus musculus with 12 samples.

Results

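The 8 genes described here encode the Fc receptors of mouse macrophages and the proteins that carry their signal. They are Fcgr1, Fcgr2b, Fcgr3, Fcgr4, Fcer1g, Fcgrt, Trim21 and Syk. They were picked by symbol from a deposited table of 18467 genes. All 8 were among the 12882 genes with enough counts to be tested. Their RNA was measured in 12 libraries of macrophages sorted from mouse femur and tibia marrow, 3 libraries from different mice in each of 4 groups. General macrophages were sorted for CD11b and F4/80, surface proteins shared by many myeloid cells, and niche macrophages for VCAM1, CD163 and CCR3. Both came either from healthy mice or from mice with bone metastases, made by injecting E0771, a mouse breast cancer cell line, into the caudal artery of female Albino B6 animals at 8 weeks of age. The strain, sex and age of the healthy mice are not given separately, and no genetic change is named for any group. The titles of the samples call both sorts general macrophages, and the sorting antigens were used here to tell them apart. The niche libraries from normal marrow are called A, B and C, because their column numbers differ from the repeat numbers in the titles.

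Antibodies bind a target with their arms and are read by other cells through their stem, the Fc part. Fcgr1, Fcgr3 and Fcgr4 encode activating receptors for immunoglobulin G that signal through Fcer1g, a shared chain with an activation motif that recruits the kinase Syk. Fcgr2b encodes the inhibitory receptor, which recruits phosphatases instead. Fcgrt encodes the heavy chain of the neonatal Fc receptor, which pairs with beta-2 microglobulin inside the cell and returns immunoglobulin G and albumin to the surface. Trim21 encodes a ubiquitin ligase that binds antibody that has entered the cytosol.

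On GRCm38, the assembly behind the mm10 build named in the submitters' processing notes, Fcgr2b, Fcgr4, Fcgr3 and Fcer1g lie together within 275.7 kb at chr1:170958617-171234365 (GENCODE M21). Fcgr1 lies at chr3:96282909-96293969, Fcgrt at chr7:45092990-45103851, Trim21 at chr7:102557921-102565486 and Syk at chr13:52583173-52648792. The counts of Fcgr2b and Fcgr3 are less certain than the others. Of the 50-base words in Fcgr3 transcripts, 9.58% also occur in transcripts of Fcgr2b, and both genes had fractional counts, more than 0.1 from a whole number, in 9 of 12 libraries. Fractional counts alone do not mark shared words, since by the same tolerance Syk had them in 8 libraries and Fcer1g in 1. Fcgr1, Fcgr4, Fcgrt, Fcer1g and Syk share no 50-base word with another gene. Fcgr2b also shares 155 exon bases with Gm38204, an antisense gene that is not in the table, and the strandedness of the counting is not given in the sources used here.

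The stretches around the annotated starts of 5 members are printed because these are the 4 Fc gamma receptors, whose make-up differed among the libraries, and the 1 member whose libraries separated the sorts in both marrow states. Each runs 5′ to 3′ on the gene's strand from 90 bases before the start through 30 bases from it (RefSeq, GRCm38.p6). Capitals mark GAGGAA, the core of the type of site bound by the myeloid factor PU.1, or TTCCTC where it lies on the other strand.
Fcgr1 (chr3:96293940-96294059, minus strand): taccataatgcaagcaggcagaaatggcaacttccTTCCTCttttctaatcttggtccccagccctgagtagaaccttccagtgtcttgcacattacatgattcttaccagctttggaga
Fcgr3 (chr1:171059374-171059493, minus strand): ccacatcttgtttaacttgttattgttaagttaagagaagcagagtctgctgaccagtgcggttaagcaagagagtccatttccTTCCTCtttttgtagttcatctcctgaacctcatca
Fcgr4 (chr1:171018836-171018955, plus strand): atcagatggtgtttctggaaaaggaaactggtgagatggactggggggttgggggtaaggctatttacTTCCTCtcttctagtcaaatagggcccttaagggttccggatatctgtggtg
Fcgr2b (chr1:170976042-170976161, minus strand): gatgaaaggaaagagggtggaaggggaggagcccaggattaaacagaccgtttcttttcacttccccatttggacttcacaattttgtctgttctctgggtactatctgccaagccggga
Fcgrt (chr7:45103793-45103912, minus strand): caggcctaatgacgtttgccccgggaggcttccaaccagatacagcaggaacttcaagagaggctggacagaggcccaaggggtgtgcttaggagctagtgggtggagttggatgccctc
The motif began 55 bases before the start of Fcgr1, 22 before that of Fcgr4 and 6 before the printed start of Fcgr3, always on the other strand. The same match lies 15 bases before a second RefSeq start of Fcgr3. Of the windows not printed, that of Trim21 held the motif 10 bases after the start and that of a second Syk start held it 9 bases before, both on the gene's own strand. No match was found in the windows of Fcgr2b, Fcgrt, Fcer1g and the first Syk start. Over the full windows of 300 bases, 28.3% of 32851 RefSeq promoters held GAGGAA on either strand. TTCNNNGAA, the form bound by interferon-activated STAT factors, was found once in the 300 bases of Fcgr1 and in 8.30% of promoters, and in no other window of a member. A match describes letters only, and no binding was measured in these samples.

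Expression is given as CPM, the usual counts scaled to library size, here after trimmed mean of M values (TMM) scaling. Totals lay between 13687945 and 30332417 counts per library, and 3 counts, taken as the floor, corresponded to between 0.109 and 0.243 CPM. In each comparison, edgeR's quasi-likelihood test was run on all 12882 genes, and a gene is called at a Benjamini-Hochberg adjusted p under 0.05. Markers of other cells were present in all groups. None of the 11 macrophage markers was at 0 in any group. Their summed level was between 11634 and 22570 CPM in general and between 6795 and 13493 CPM in niche libraries, a sum made up mostly of Lyz2, the lysozyme of myeloid cells. Lyz2 was called lower in niche macrophages in both marrow states (log2 fold changes of -1.43 and -1.17), whereas 9 of the 11 markers had positive fold changes in each. The median over the list was 3.89 in normal and 1.43 in metastatic marrow on the log2 scale, with 7 and 4 markers called higher and 1 called lower in each. Vcam1, Cd163 and Ccr3, the genes of the niche sort, are among those called higher. The 10 neutrophil markers summed to between 12850 and 20920 CPM in general and between 9042 and 11046 CPM in niche libraries. The 10 monocyte markers summed to between 13914 and 20228 CPM in general and between 5484 and 11328 CPM in niche libraries. In contrast, the 10 erythroid markers summed to between 12.7 and 106 CPM in general and between 589 and 1613 CPM in niche libraries. The B cell markers, 10 of 11 of which are in the table, summed to between 1.97 and 56.2 CPM in general, between 737 and 983 CPM in niche libraries from normal marrow and between 92.3 and 313 CPM in those from metastatic marrow. Blk was at 0 in both general groups, where the B cell list was lowest.

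**Figure D1:**
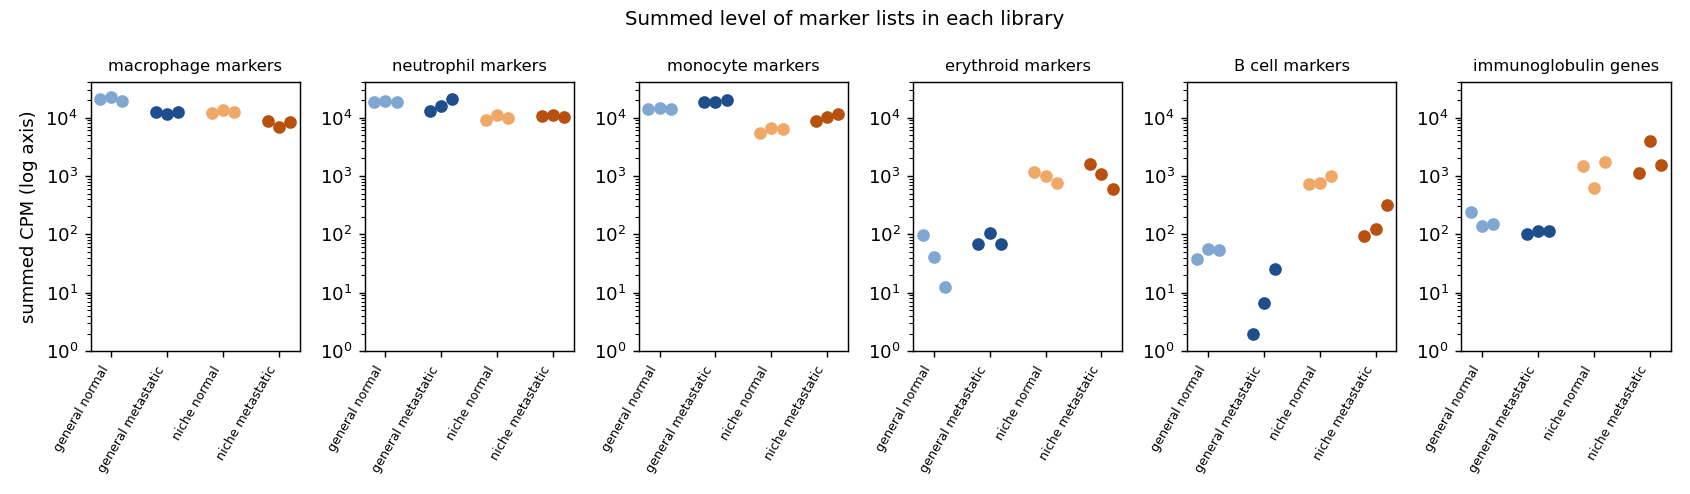
Summed CPM (log axis) of 6 gene lists in each of the 12 libraries, 1 point per library, by group. Erythroid, B cell and immunoglobulin lists are higher in every niche library than in any general library, and the neutrophil and monocyte lists are lower.

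No member was called in niche against general macrophages from normal marrow. The count was 0 of 8 by edgeR, where 2.47% of all tested genes were called, and 2 of 8 had an unadjusted p under 0.05, against 19.0% of all tested genes. DESeq2 called 1 of 8, Fcgrt, and 15.4% of the genes it tested. Limma-voom called 0 of 8 and 1.44% of all genes. In metastatic marrow edgeR again called 0 of 8, where 0.831% of all genes were called. An unadjusted p under 0.05 was found for 2 of 8, against 8.60% of all genes. DESeq2 called 1 of 8, again Fcgrt, against 4.05% of genes, and limma-voom called 0 of 8, against 1.38%. Over the members, the median log2 fold change was 0.21 in normal and -0.28 in metastatic marrow, beside 0.19 and 0.04 over all tested genes.

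**Figure D2:**
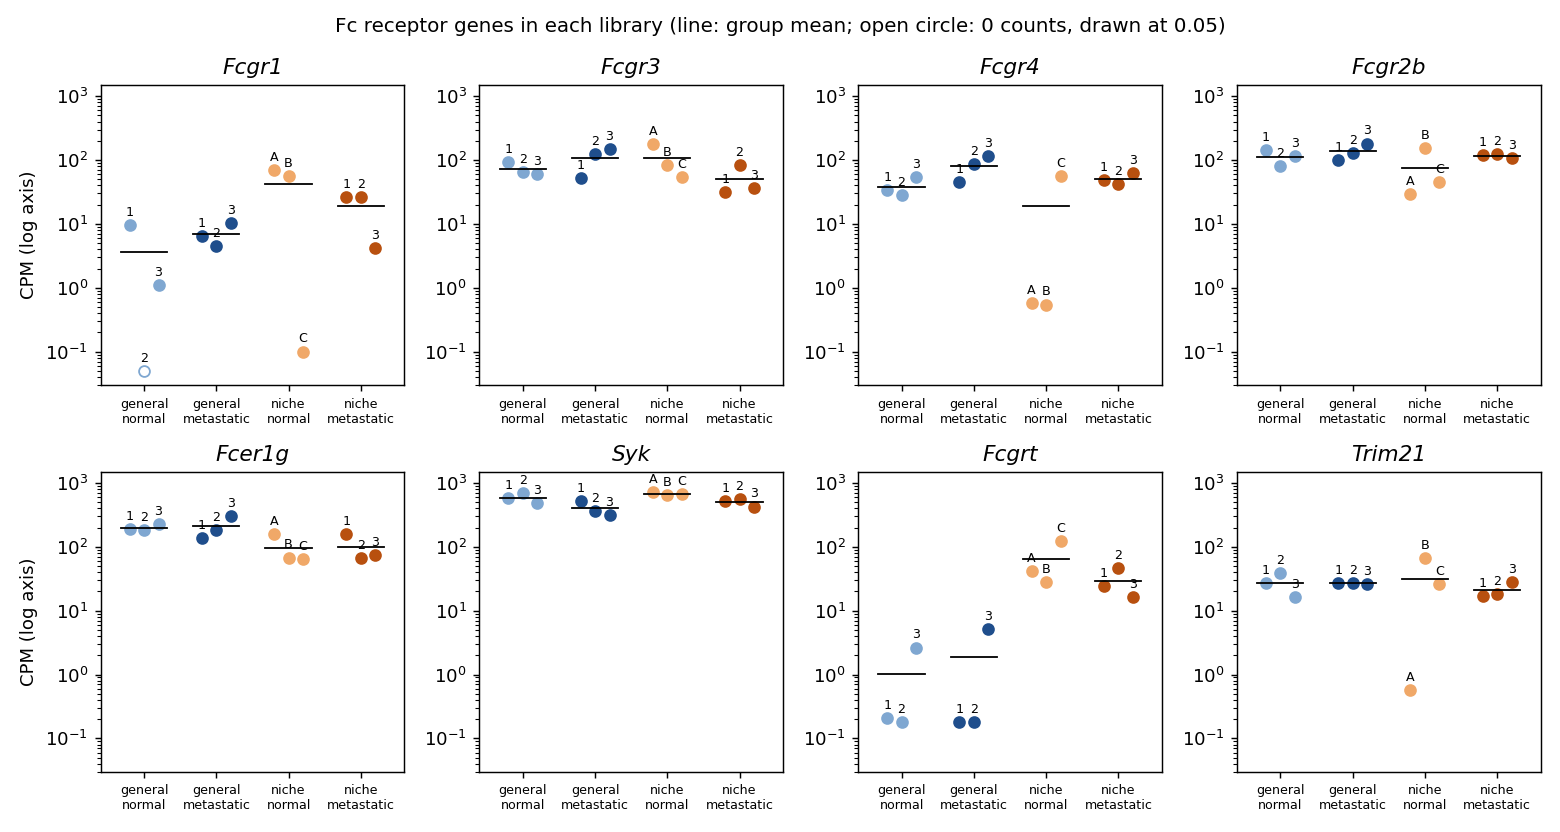
CPM (log axis) of the 8 genes in each library, 1 labelled point per library, with the group mean as a line and an open circle for 0 counts. Fcgrt is higher in all 6 niche than in all 6 general libraries, Syk lies between 315 and 730 CPM, and Fcgr1, Fcgr4 and Trim21 each fall below 1 CPM in 1 or 2 of the niche libraries A to C.

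Fcgrt, the neonatal Fc receptor chain, differed most between the sorts. In general macrophages from normal marrow it was at 0.206, 0.178 and 2.65 CPM in replicates 1 to 3, which is 3, 3 and 53 counts. In niche libraries A, B and C from normal marrow it was at 41.3, 28.5 and 121 CPM. The groups did not overlap, and the log2 fold change was 5.96 ± 1.72 (SE, n = 3 each; adjusted p = 0.0783 by edgeR). In metastatic marrow Fcgrt was at 0.182, 0.181 and 5.20 CPM in general and at 24.5, 47.2 and 16.3 CPM in niche macrophages. Again every niche library was above every general library, with a log2 fold change of 3.98 ± 1.56 (SE, n = 3 each; adjusted p = 0.499 by edgeR). The groups did not overlap in 2 of 8 members in normal and in 1 of 8 in metastatic marrow, against 18.8% and 17.2% of all tested genes. Replicate 3 of each general group held most of the Fcgrt counts of its group. Without it the log2 fold change was 8.34 in normal marrow (adjusted p = 0.0601 by edgeR) and 7.29 in metastatic marrow (adjusted p = 0.166 by edgeR). DESeq2 gave adjusted p-values of 7.53e-05 and 0.0347, so the call of Fcgrt depended on the test.

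B2m, the partner chain of the neonatal receptor, was not called between the sorts. Its group mean lay between 491 and 556 CPM, and its log2 fold changes between the sorts were -0.04 ± 0.27 and -0.15 ± 0.27 (SE) in normal and metastatic marrow (adjusted p = 0.975 and 1 by edgeR). Immunoglobulin transcripts of several classes, of which the neonatal receptor binds only the G class, were higher as a sum in the niche libraries that held Fcgrt. The 12 immunoglobulin genes in the table summed to between 100.1 and 239 CPM in general and between 627 and 4017 CPM in niche libraries. Of the 10 tested, 4 were called higher in each marrow state and none lower, beside 1.50% and 0.574% of all genes called higher. They were Jchain, which joins the units of secreted antibody, Igkc, Ighm and Igha. In normal marrow Igha lost its call without general replicate 1 or 2 or niche library B or C, and Ighm without general replicate 2 or 3 or niche library C. In metastatic marrow Igha kept its call only without niche replicate 3. None of the 4 was called by limma-voom in normal marrow, and only Ighm was in metastatic marrow (adjusted p = 0.0217). Of the genes for the heavy chains of immunoglobulin G, the class that the Fc gamma receptors bind, Ighg2b, Ighg2c and Ighg3 were tested and not called, and Ighg1 had too few counts to be tested. The 7 plasma cell markers, which include Jchain, summed to between 175 and 372 CPM in general and between 420.4 and 1606 CPM in niche libraries, and none was at 0 in any group. Erythroid, B cell, plasma cell and immunoglobulin transcripts thus moved with Fcgrt across the sorts, and their part in its level was not tested.

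Fcer1g, the shared signalling chain, was at 187, 181 and 225 CPM in general macrophages from normal marrow and at 159, 67.9 and 64.9 CPM in niche libraries A to C. Every general library was above every niche library, and the log2 fold change was -1.02 ± 0.44 (SE, n = 3 each; adjusted p = 0.237 by edgeR). The values in metastatic marrow were 135, 186 and 306 CPM in general and 160, 67.2 and 74.6 CPM in niche macrophages. Here niche replicate 1 overlapped the general libraries, and the log2 fold change was -1.06 ± 0.44 (SE, n = 3 each; adjusted p = 0.523 by edgeR). These are the 2 members, with Fcgrt, whose unadjusted p was under 0.05 in both marrow states (0.0308 and 0.0262 for Fcer1g by edgeR). Without niche library A the log2 fold change in normal marrow was -1.56 (adjusted p = 0.0816 by edgeR). The neutrophil and monocyte lists were also lower in the niche libraries, and their part in the level of Fcer1g was not tested. In bulk libraries, fewer cells that express a gene and less RNA per cell cannot be told apart.

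Tyrobp, the other main adaptor with an activation motif in myeloid cells, averaged 99.9 ± 31.1 CPM in the general sort and 19.2 ± 19.0 CPM in the niche sort of normal marrow (SD, n = 3 each). Its log2 fold change was -2.38 ± 0.98 (SE; adjusted p = 0.227 by edgeR) there and -0.97 ± 0.94 (SE; adjusted p = 1 by edgeR) in metastatic marrow. Neither value passed.

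Syk, the kinase that docks on the phosphorylated chain, had the smallest standard errors of the 8 genes in these comparisons. It was at 573, 691 and 489 CPM in general macrophages from normal marrow, 524, 369 and 315 CPM in those from metastatic marrow, 730, 648 and 665 CPM in niche libraries A to C and 517, 554 and 427 CPM in niche macrophages from metastatic marrow. The sorts overlapped in both marrow states. The log2 fold changes of niche against general macrophages were 0.22 ± 0.24 in normal and 0.31 ± 0.24 in metastatic marrow (SE; adjusted p = 0.714 and 0.970 by edgeR). Per unit of transcript length, Syk stood at 0.282 ± 0.0772 of the level of Fcer1g in general macrophages from normal marrow and 0.759 ± 0.288 in the niche sort of that marrow (SD, n = 3 each). In metastatic marrow the ratios were 0.214 ± 0.136 and 0.536 ± 0.234 (SD, n = 3 each). The libraries of the sorts did not overlap in this ratio in normal marrow, and overlapped in metastatic marrow.

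Fcgr1 encodes the high-affinity receptor. In general macrophages from normal marrow it was at 9.62, 0 and 1.10 CPM, where 0 counts allow up to 0.178 CPM. It was at 6.39, 4.52 and 10.2 CPM in general macrophages from metastatic marrow. Niche libraries A and B from normal marrow held 69.5 and 56.7 CPM, and library C held 0.1004 CPM, which is 2 counts. Niche macrophages from metastatic marrow were at 26.5, 26.8 and 4.21 CPM. So 2 of 3 niche libraries stood above all general libraries in each marrow state and the remaining library did not. The log2 fold change was 3.56 ± 1.94 in normal and 1.45 ± 1.79 in metastatic marrow (SE, n = 3 each; adjusted p = 0.319 and 1 by edgeR). Without general replicate 1 it was 6.24 in normal marrow (adjusted p = 0.323 by edgeR), and without library C it was 4.15 (adjusted p = 0.239 by edgeR).

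Fcgr4 showed the opposite split among the same libraries. It was at 0.568 and 0.547 CPM in niche libraries A and B, which is 7 and 11 counts, and at 56.7 CPM in library C, which is 1129 counts. General macrophages from normal marrow were at 33.4, 28.2 and 53.7 CPM, those from metastatic marrow at 44.8, 86.0 and 115 CPM, and niche macrophages from metastatic marrow at 48.2, 42.8 and 62.7 CPM. With all libraries, the log2 fold change of niche against general macrophages was -0.996 ± 1.14 in normal and -0.68 ± 1.13 in metastatic marrow (SE, n = 3 each; adjusted p = 0.732 and 1 by edgeR). Library C decides the value in normal marrow. Without it the log2 fold change was -6.09 ± 0.96 (SE; adjusted p = 0.00131 by edgeR), a call that rests on 2 niche libraries. Across the 12 libraries, log2(CPM + 1) of Fcgr1 and Fcgr4 had a Pearson correlation of -0.61, a description over points that share groups.

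Such splits were common in the niche libraries from normal marrow. Of 8441 tested genes with a group mean of at least 10 CPM there, 44.4% differed more than 10-fold between the highest and lowest library, with values under 3 counts raised to the floor. The members that did so were 3 of 8, Fcgr1, Fcgr4 and Trim21, a share close to that of all such genes. The share of such genes was 15.7% in general macrophages from normal marrow, 4.84% in those from metastatic marrow and 18.0% in niche macrophages from metastatic marrow. In these groups none of the 6, 6 and 8 members of that level did so.

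Fcgr3 encodes a low-affinity activating receptor. It was at 93.1, 65.4 and 61.3 CPM in general macrophages from normal marrow and at 181, 84.1 and 54.9 CPM in niche libraries A to C. The values in metastatic marrow were 52.0, 126 and 151 CPM in general and 31.3, 84.5 and 36.5 CPM in niche macrophages. The sorts overlapped in both states, with log2 fold changes of 0.54 ± 0.55 and -1.11 ± 0.56 (SE, n = 3 each; adjusted p = 0.687 and 0.616 by edgeR). The value in normal marrow rests on library A, without which it was -0.06.

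Fcgr2b encodes the inhibitory receptor. It was at 144, 80.5 and 116 CPM in general macrophages from normal marrow, 99.4, 128 and 182 CPM in those from metastatic marrow, 29.3, 154 and 45.8 CPM in niche libraries A to C and 122, 123 and 109 CPM in niche macrophages from metastatic marrow. The niche libraries from metastatic marrow lay close together, and those from normal marrow were the most spread. The log2 fold changes of niche against general macrophages were -0.57 ± 0.50 and -0.21 ± 0.50 (SE, n = 3 each; adjusted p = 0.607 and 1 by edgeR), and the groups overlapped. In normal marrow the value was -1.59 without library B (adjusted p = 0.0799 by edgeR) and -0.17 without library A. In metastatic marrow it turned to 0.047 without general replicate 3. B cells also express this receptor. Library B, with the highest Fcgr2b, held 752 CPM of B cell markers, between 737 CPM in library A and 983 CPM in library C. The part of B cells in the level of Fcgr2b was not tested.

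Trim21, the cytosolic antibody receptor, was at 27.0, 38.4 and 16.4 CPM in general macrophages from normal marrow and at 27.3, 26.8 and 25.8 CPM in those from metastatic marrow. In niche libraries A to C it was at 0.568, 66.3 and 26.5 CPM, the lowest value being 7 counts. In niche macrophages from metastatic marrow it was at 16.7, 17.9 and 27.8 CPM. The log2 fold changes between the sorts were 0.19 ± 1.17 and -0.36 ± 1.17 (SE, n = 3 each; adjusted p = 0.975 and 1 by edgeR). The first turned negative without library B (-0.996), without general replicate 3 (-0.06) and with limma-voom (-0.80).

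Dividing counts by the length of the merged exons lets the members be compared with each other. The order depends on those lengths, which merge all transcripts of a gene. They are 9362 bases for Syk and 874 bases for Fcer1g, and in CPM Syk was above Fcer1g in every library. On this per-length scale Fcer1g had the highest level of the 8 in 12 of 12 libraries, and in each group its libraries did not overlap those of the next gene. In general macrophages from normal marrow Syk, Fcgr3, Fcgr4 and Fcgr2b followed, each overlapping its neighbour. Trim21, Fcgr1 and Fcgrt were lowest there. In niche macrophages from normal marrow Fcgrt stood in the fourth place, at 29.2 ± 24.4 (SD, n = 3) on that scale, set to the same total in each library, between Fcgr3 and Fcgr4. It overlapped both neighbours. Trim21 was lowest in niche macrophages of both states, though it overlapped Fcgr1 or Fcgr2b.

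The make-up of the 4 Fc gamma receptors was compared as shares of their summed per-length counts within a library. In general macrophages Fcgr3 held between 35.1% and 50.9%, Fcgr4 between 24.5% and 43.4%, Fcgr2b between 13.4% and 22.8% and Fcgr1 between 0% and 3.41%. In niche library A Fcgr3 held 76.3% and Fcgr1 19.7%. In library B Fcgr3 held 49.8%, Fcgr2b 27.3% and Fcgr1 22.5%. In library C Fcgr4 held 53.3% and Fcgr1 0.0458%. In niche macrophages from metastatic marrow Fcgr4 held between 29.8% and 54.7%, Fcgr3 between 20.6% and 42.6%, Fcgr2b between 18.5% and 24.0% and Fcgr1 between 1.78% and 11.7%. On this scale the summed activating receptors exceeded Fcgr2b in all 12 libraries. This depends on the merged exon length, which is 5790 bases for Fcgr2b, 2589 for Fcgr1, 1736 for Fcgr3 and 1256 for Fcgr4. In CPM Fcgr2b exceeded the sum in some libraries. In niche library B it was at 154 CPM, with Fcgr1, Fcgr3 and Fcgr4 at 56.7, 84.1 and 0.547 CPM. The per-length ratio was 3.87 ± 0.473 in general macrophages from normal marrow and 5.42 ± 1.29 in those from metastatic marrow (SD, n = 3 each). In niche macrophages from metastatic marrow it was 3.81 ± 0.614 (SD, n = 3). In niche libraries A to C it was 26.0, 2.67 and 9.70, a range that holds all other libraries. Fcer1g exceeded the sum of the activating receptors in general macrophages, by a ratio of 3.09 ± 0.472 in normal and 1.89 ± 0.387 in metastatic marrow. In niche macrophages the ratios were 1.15 ± 0.214 and 1.58 ± 1.02 (SD, n = 3 each). In normal marrow the sorts did not overlap in this ratio, and in metastatic marrow they did.

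**Figure D3:**
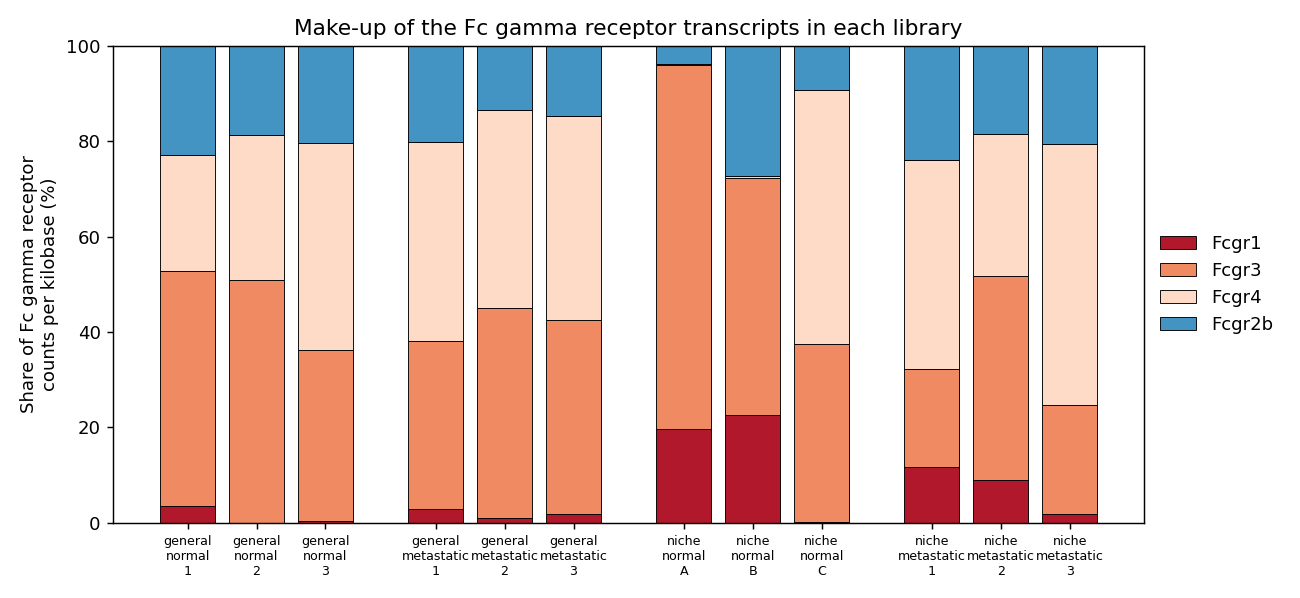
Share of each Fc gamma receptor in the summed counts per kilobase of Fcgr1, Fcgr3, Fcgr4 and Fcgr2b (%), 1 stacked bar per library. General libraries are alike, whereas niche libraries A and B hold Fcgr1 and almost no Fcgr4, and library C holds Fcgr4 and almost no Fcgr1.

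The effect of metastasis was then taken within each sort. In general macrophages edgeR called 0 of 8 members, where 0.0155% of all genes were called, and 1 of 8, Syk, had an unadjusted p under 0.05, against 5.12% of genes. DESeq2 called 0 of 8, against 1.19% of genes, and limma-voom 0 of 8, against 0.179%. In niche macrophages edgeR called 0 of 8, where 0.00776% of all genes were called. None had an unadjusted p under 0.05, against 12.7% of genes. DESeq2 called 0 of 8, against 8.06% of genes, and limma-voom 0 of 8, against 0.0854%. The groups did not overlap in 0 of 8 members in general macrophages, against 12.9% of all tested genes. The median log2 fold change of the members was 0.42 in general and -0.51 in niche macrophages, beside -0.01 and -0.17 over all tested genes. These comparisons share samples with those between the sorts. Cell markers also differed between the marrow states. In general libraries the monocyte markers summed to 13914 to 14605 CPM in normal and 18365 to 20228 CPM in metastatic marrow. In niche libraries they summed to 5484 to 6694 and 8817 to 11328 CPM. The macrophage list, mostly Lyz2, and the B cell list were lower in every metastatic than in every normal library of each sort. Their part in the levels of the members was not tested.

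Syk had negative log2 fold changes with metastasis in both sorts. The value was -0.54 ± 0.24 in general (adjusted p = 0.944 by edgeR) and -0.45 ± 0.24 in niche macrophages (edgeR adjusted p = 0.424; SE, n = 3 each). In niche macrophages all 3 metastatic libraries were below all 3 normal libraries, the 1 of 8 members without overlap there, against 12.7% of all tested genes. In general macrophages replicate 1 from metastatic marrow overlapped the normal libraries. Neither value passed, and the difference between the sorts was 0.09 ± 0.34 (SE; adjusted p = 1 by edgeR).

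Fcgr4 had positive log2 fold changes with metastasis in both sorts, 1.09 ± 1.14 in general and 1.41 ± 1.15 in niche macrophages (SE, n = 3 each; adjusted p = 1 and 0.688 by edgeR). The value in niche macrophages rests on library C. Without it the log2 fold change was 6.50 ± 0.98 (SE; adjusted p = 0.0112 by edgeR), a call that rests on libraries A and B alone in normal marrow. Fcgr3 had log2 fold changes of 0.58 ± 0.55 in general and -1.07 ± 0.56 in niche macrophages (SE, n = 3 each; adjusted p = 1 and 0.415 by edgeR). The remaining members had log2 fold changes in niche macrophages of -1.13 for Fcgr1, -1.12 for Fcgrt, -0.58 for Trim21, 0.05 for Fcer1g and 0.63 for Fcgr2b. In general macrophages they were 0.98, 0.86, -0.03, 0.08 and 0.26 in the same order, and none passed in either sort. Several of these values rest on 1 library. In general macrophages Fcgr1 was 3.65 without normal replicate 1 and otherwise between 0.39 and 1.22, and Fcgrt was 3.24 without normal replicate 3 and -2.46 without metastatic replicate 3. Leaving out 1 library also turned the sign of Trim21 and Fcer1g in both sorts and of Fcgr2b in general macrophages.

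**Figure D4:**
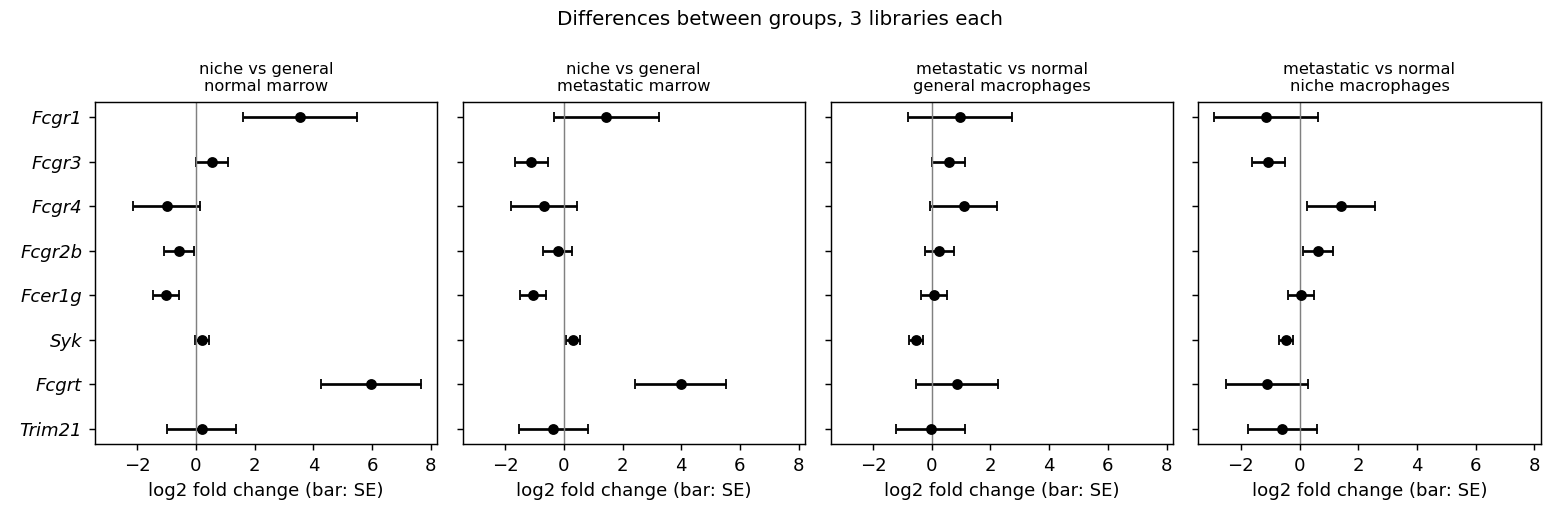
Log2 fold change of the 8 genes in 4 comparisons, with bars of 1 SE from edgeR and 3 libraries per group. Only Fcgrt stands more than 2 SE from 0 on the higher side in the sorts' comparisons, Fcer1g lies at about -1 in both, and no value passed after adjustment.

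Whether the effect of metastasis differed between the sorts was tested as an interaction. EdgeR called 0 of 8 members and 0 of all tested genes (0%). An unadjusted p under 0.05 was found for 1 of 8, against 7.89% of genes, and DESeq2 called 0 of 8, against 3.46%. Limma-voom called 0 of 8 and 0 of all genes. The member was Fcgr3, with a log2 difference of -1.65 ± 0.79 (SE; edgeR unadjusted p = 0.0497, adjusted p = 0.625). Over the 12 fits that each left out a library this difference lay between -2.24 and -1.05.

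Genes that act below the receptors were taken from 6 lists: other Fc receptors, Src family kinases, adaptors and effectors, inhibitory phosphatases and adaptors, actin and phagosome genes, and the phagocyte oxidase. They hold 82 genes beside the members, of which 77 are in the table and 73 were tested. In normal marrow 2 were called higher and 4 lower in niche than in general macrophages. That is beside 1.50% of all genes called higher and 0.970% called lower. In metastatic marrow 1 was called higher and 1 lower, beside 0.574% and 0.256% of all genes. An unadjusted p under 0.05 was found for 26 of 73 in normal and 15 of 73 in metastatic marrow, against 19.0% and 8.60% of all tested genes. The median log2 fold change of the 73 was -0.09 in normal and -0.30 in metastatic marrow, beside 0.19 and 0.04 over all genes.

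Myo10, a myosin that moves into the extending phagocytic cup, was called higher in niche macrophages in both states. In normal marrow its mean was 8.53 ± 6.70 CPM in the general sort and 251 ± 52.8 CPM in the niche sort (SD, n = 3 each), or a log2 difference of 4.88 ± 0.73 (SE; adjusted p = 0.000564 by edgeR). The means in metastatic marrow were 5.82 ± 2.71 and 133 ± 25.7 CPM (SD, n = 3 each; adjusted p = 0.00156 by edgeR). It kept its call in each of the 6 fits per comparison that left out a library. Arpc5, a subunit of the actin-branching Arp2/3 complex, was called lower in metastatic marrow, averaging 837 ± 143 CPM in the general and 401 ± 74.8 CPM in the niche sort (SD, n = 3 each; adjusted p = 0.0416 by edgeR). That call was lost without any of the libraries of the comparison other than general replicate 1.

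The kinases and effectors called in normal marrow were lower in niche macrophages. Cbl, a ubiquitin ligase that marks activated kinases and receptors for removal, averaged 1431 ± 138 CPM in the general and 693 ± 87.3 CPM in the niche sort (SD, n = 3 each; adjusted p = 0.00556 by edgeR). Cybb, the catalytic chain of the phagocyte oxidase, averaged 2592 ± 294 and 1392 ± 62.6 CPM (SD, n = 3 each; adjusted p = 0.00739 by edgeR). Prkcd, a protein kinase C, averaged 270.1 ± 44.8 and 80.2 ± 24.8 CPM (SD, n = 3 each; adjusted p = 0.00843 by edgeR), and lost its call without general replicate 1 (adjusted p = 0.0656). Fgr, a Src family kinase that can phosphorylate the activation motif, averaged 477 ± 97.6 and 176 ± 86.8 CPM (SD, n = 3 each; adjusted p = 0.0399 by edgeR), and kept its call in 1 of 6 fits, that without niche library B. In metastatic marrow Cbl, Cybb, Prkcd and Fgr differed by -0.58, -0.42, -0.72 and -0.55 on the log2 scale, none of which passed. The neutrophil and monocyte lists were lower in the same niche libraries, and their part in these levels was not tested.

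Sh2d1b1, an adaptor of SLAM family receptors placed in the inhibitory list, averaged 0.192 ± 0.0505 CPM in the general sort and 76.1 ± 37.3 CPM in the niche sort of normal marrow (SD, n = 3 each; adjusted p = 0.0185 by edgeR). The call was lost without any 1 of the general replicates, with adjusted p-values up to 0.0920. This adaptor is known from natural killer cells. In normal marrow the 8 natural killer cell markers summed to 103 to 177 CPM in general and 211 to 485 CPM in niche libraries. In metastatic marrow they summed to 130 to 194 CPM in general and 132 to 343 CPM in niche libraries. Their part in the level of Sh2d1b1 was not tested. The well-known inhibitory phosphatases of Fcgr2b signalling, Inpp5d, Ptpn6 and Inppl1, were not called.

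**Figure D5:**
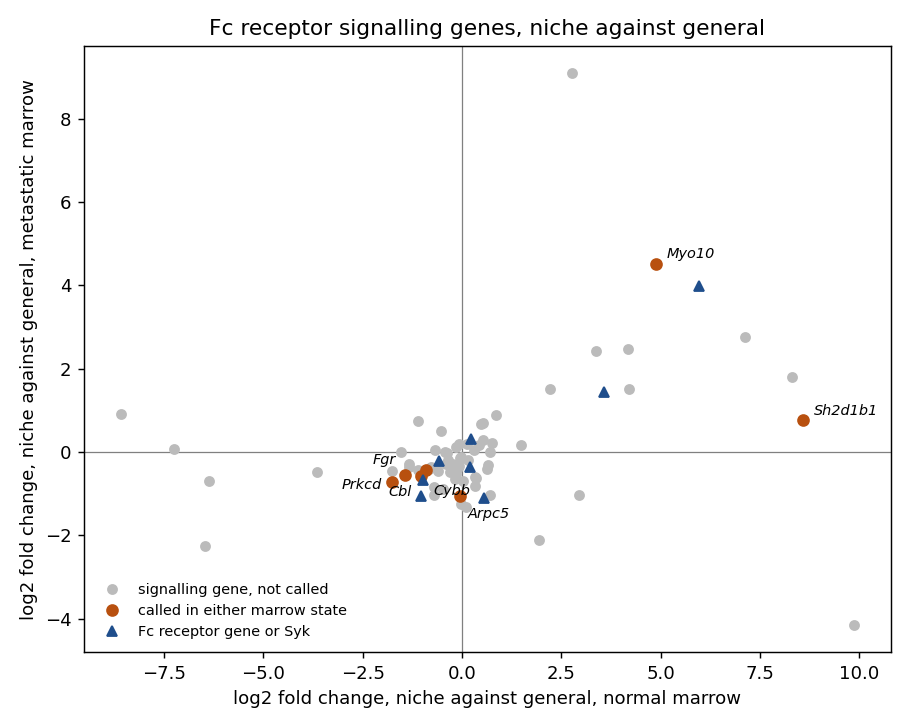
Log2 fold change of niche against general macrophages in normal (x axis) and metastatic marrow (y axis) for the 73 tested signalling genes (circles) and the 8 members (triangles). Named genes were called in either marrow state, and Myo10 is the 1 gene called in both.

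With metastasis, edgeR called 0 of the 73 signalling genes in general and 0 in niche macrophages. An unadjusted p under 0.05 was found for 6 and 10 of them, against 5.12% and 12.7% of all tested genes. DESeq2 called 1 and 6, against 1.19% and 8.06% of genes, and limma-voom 1 and 0, against 0.179% and 0.0854%. In the interaction edgeR called 0 of 73, and 6 had an unadjusted p under 0.05, against 7.89% of genes. DESeq2 called 5 there, against 3.46% of genes, and limma-voom 0.

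The genes whose pattern over the 12 libraries was most like that of a member were taken by the Pearson correlation of log2(CPM + 1) among 8144 other genes that averaged 10 CPM or more. Such values describe shared high and low libraries, and part of them comes from the groups themselves. For Fcgrt the first was Mertk, a receptor for the uptake of dying cells, with r = 0.965. For Fcer1g they were Iqgap1 and Sema4a, with r = 0.905 and 0.891. For Fcgr1 they were Mterf1b and Utp14b (r = 0.939 and 0.917), and for Fcgr4 Ncaph and Cpne2 (r = 0.975 for each). Those of Trim21 were Tmem135 and Azi2 (r = 0.955 and 0.954), those of Fcgr2b were Ramac and Sfr1 (r = 0.936 and 0.927), those of Syk were Gm37494 and Fcho2 (r = 0.912 and 0.882) and those of Fcgr3 were Alkbh3 and Tnfrsf13b (r = 0.834 and 0.831). The highest correlation among the pairs of members was 0.69, between Fcgr2b and Trim21. It cannot be set against the values above, which are the highest out of 8144 genes.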

How the data were processed

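The authors deposited a table of estimated counts per gene symbol for the 12 libraries, 75.0% of them whole numbers (tolerance 1e-09). The submitters' processing notes name STAR 2.7.3a, Partek, DESeq2 1.40.2, R 4.3.1 and the mm10 build; the counting step, its treatment of shared reads and its strandedness are not given in the sources used here. Counts were rounded. In R 4.3.3, edgeR 4.0.16 (filterByExpr, TMM, 1 mean per group, all 12 libraries, quasi-likelihood test, Benjamini-Hochberg adjustment over 12882 genes) gave each comparison. DESeq2 1.42.0, limma 3.58.1 (voom with quality weights), other scalings and filters, and leaving out each library were alternatives. The test was checked on simulated counts. Per-length values used merged exon lengths (GENCODE M21), matched for 18026 symbols. Floors of 3 counts cover counting error only.

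The members and gene lists were chosen with earlier results of these data known. Named were the members, up to 3 called genes of lowest p per pathway, related or immunoglobulin list and comparison, and the 2 genes most like each member, of which 1 is not reported here. Igha, the Ighg genes, B2m, Tyrobp, Inpp5d, Ptpn6 and Inppl1 fall outside that rule and were chosen after their values were seen.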

Additional observations from a re-analysis of the deposited data

How the results depend on the processing

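Of the 40 log2 fold changes of the members, 16 changed sign under at least 1 alternative, and the largest of these was 1.98 in size with all libraries. With limma-voom, Trim21 was -0.80 in niche against general macrophages from normal marrow. With metastasis in general macrophages Fcer1g was -0.11, Fcgrt -0.16 and Trim21 0.13 by the same tool, and in niche macrophages Fcgr1 was 0.64 and Trim21 0.61. In the interaction it gave 0.20 for Fcer1g, 0.49 for Trim21 and -0.014 for Syk. With library size only, Fcgr2b was 0.0046 in niche against general macrophages from metastatic marrow and Fcer1g 0.16 in the interaction, which was 0.016 without haemoglobin, immunoglobulin, mitochondrial and small RNA genes. The cause of these changes was not tested. DESeq2 called 1 member in each marrow state between the sorts. It called 19, 4, 1, 6 and 5 signalling genes in niche against general macrophages from normal and metastatic marrow, with metastasis in general and niche macrophages, and in the interaction, beside 15.4%, 4.05%, 1.19%, 8.06% and 3.46% of all genes it tested. Of the 2 signalling genes in metastatic marrow, 1 was called with RLE scaling, with library size only and with the libraries of the comparison alone, and limma-voom called 5. Limma-voom called 1 with metastasis in general macrophages.

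Leaving out 1 library at a time gave these ranges where a direction or a count changed. Between the sorts in normal marrow, the signalling genes called numbered from 3 to 8, Trim21 lay between -0.996 and 0.78, Fcgr3 lay between -0.063 and 0.86 and the members called numbered from 0 to 1. Between the sorts in metastatic marrow, the signalling genes called numbered from 1 to 2 and Fcgr2b lay between -0.40 and 0.047. With metastasis in general macrophages, Trim21 lay between -0.29 and 0.30, Fcgr2b lay between -0.013 and 0.47, Fcer1g lay between -0.31 and 0.32 and Fcgrt lay between -2.46 and 3.24. With metastasis in niche macrophages, Fcer1g lay between -0.46 and 0.58, Trim21 lay between -1.17 and 0.60 and the members called numbered from 0 to 1. In the interaction, Fcer1g lay between -0.55 and 0.50, Syk lay between -0.056 and 0.32, Fcgr4 lay between -0.27 and 5.41, Fcgrt lay between -4.37 and 1.46, Fcgr2b lay between -0.038 and 1.37 and Trim21 lay between -1.14 and 0.63. The single member called in such fits was Fcgr4, without niche library C. The 3 signalling genes in normal marrow were those without general replicate 1.

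Same-numbered libraries did not deviate together (correlations between -0.01 and 0.03 over 9 pairs). Most of these pairs set healthy mice against mice with metastases, which cannot share an animal. Correlations of this kind cannot decide whether equal numbers mark the same mouse, so any pairing is unknown. A replicate block, which can be fitted only on the 9 libraries that share numbers, gave 0 members and 1 signalling gene between the sorts in metastatic marrow. No paired analysis was possible for the niche libraries from normal marrow because their columns carry no number of the titles.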

Other observations

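Receptors related to the Fc receptors were counted in a pair of lists, of activation-motif adaptors with their receptors and of receptors with an inhibitory motif. In normal marrow 0 of 13 tested genes of the first list were called higher and 2 lower in niche macrophages, and of 16 in the second 2 were called higher and 1 lower, beside 1.50% and 0.970% of all genes. In metastatic marrow edgeR called 0 of the first list. Of the second it called 1 higher and 0 lower, beside 0.574% and 0.256% of all genes. An unadjusted p under 0.05 by edgeR was found for 6 of 13 and 7 of 16 in normal marrow, against 19.0% of all tested genes. In metastatic marrow it was found for 0 of 13 and 6 of 16, against 8.60%. In normal marrow Siglec1, a sialic acid receptor of tissue macrophages, was called higher in niche than in general macrophages, with a log2 fold change of 3.69 ± 0.73 (SE, n = 3 each; edgeR adjusted p = 0.00777). It was also called in metastatic marrow, at 4.20 ± 0.75 (SE, n = 3 each; edgeR adjusted p = 0.00536), and in each of the 6 fits per comparison that left out a library. Clec5a, which signals through a motif-bearing adaptor, was called lower in niche macrophages from normal marrow, at -1.57 ± 0.32 (SE, n = 3 each; edgeR adjusted p = 0.0101). Clec7a, the beta-glucan receptor, was called lower there at -2.72 ± 0.62 (SE, n = 3 each; edgeR adjusted p = 0.0219), and lost its call without general replicate 2 or 3. Of the inhibitory-motif list, Cd33 was called lower in normal marrow (-0.84; edgeR adjusted p = 0.0296), a call kept only without niche library B. Sirpa, the receptor for CD47, was called higher (0.91; edgeR adjusted p = 0.0439), a call kept only without niche library C. Among the partners of Trim21, of which 9 were tested, Irf8, an interferon regulatory factor of myeloid cells, was the 1 gene called in normal marrow (1.77; edgeR adjusted p = 0.0478), a call kept only without niche library B. In metastatic marrow the log2 fold changes of Clec5a, Cd33 and Sirpa kept their direction, at -0.58, -0.31 and 0.75. Those of Clec7a and Irf8 turned, to 0.20 and -0.10, and none of these values passed.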
